A study of Mus musculus with 6 samples.

Results

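The genes described here are 34 genes that mark cardiac fibroblasts or a fibroblast state, out of 29385 genes in the deposited tables. They were taken from a given list of symbols that leaves out the collagens, the small proteoglycans and the microfibril genes. Fibroblasts are the connective tissue cells of the heart: they make and remodel the matrix between the muscle cells, and a part of them lies in the adventitia, the outer coat of the vessels. In a stressed heart they leave their resting state and turn on matrix and signalling genes. The level of such a gene in whole tissue thus depends on how many fibroblasts there are and on their state. It also depends on any other cells that express the gene. The list was ordered by role into 7 identity genes, 8 genes of the adventitial kind, 5 genes for regulators of signals, 4 genes for proteases and a redox enzyme, 9 matrix genes and 1 gene shared with leukocytes.

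The study sequenced poly(A) RNA from 6 mouse heart samples, 2 in each of 3 groups, taken 12 months after an agent was given to newborn mice. The groups were Myh6RH/+ with vehicle, Myh6RH/RQ with vehicle, and Myh6RH/RQ with AAV-hpCas13d, and they are called RH/+ vehicle, RH/RQ vehicle and treated RH/RQ below. Every group carried the RH allele of Myh6, the gene of the main motor protein of adult mouse heart muscle; the labels spell out neither RH nor RQ, and they give no strain, no sex and no target of the Cas13d, an enzyme that cuts RNA guided by a short RNA. Whether the samples of a group were different animals is not stated, and their titles end in the same 3 digits, so the p-values below measure only the spread between these samples, which may be technical.

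Libraries held 36269261 to 51017058 reads, and 3 reads, the limit that a count of 0 allows, were worth 0.0588 to 0.0827 CPM, the count of a gene scaled to the total of its library. Genes of the mitochondrial genome took 17.2% to 22.4% of reads. Cardiomyocyte markers summed to 51736 to 61635 CPM, while the atrial genes Myl7, Sln and Bmp10 were each at most 0.70 CPM in every library. Sex-linked genes separated the groups: Xist was at 280 and 265 CPM in RH/+ vehicle, 0.274 and 0.0516 CPM in RH/RQ vehicle and 299 and 326 CPM in treated RH/RQ, and the Y-linked gene Ddx3y was at 85.2 CPM in each RH/RQ vehicle library and had 0 reads in the other 4. Sex and group cannot be told apart in either comparison that uses RH/RQ vehicle.

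All 34 genes were detected in all 6 libraries and all passed the filter on low counts. Set per kilobase of exon, Gsn was the most abundant in each of the 6 libraries, with a mean of 542 CPM per kilobase, and Mgp was the next in each, with a mean of 201. Ly6a (89.4), Dpt (79.8) and Clec3b (49.0 CPM per kilobase) followed by mean. The lowest were Dpp4 at 0.641 and Nox4 at 0.227 CPM per kilobase, Nox4 being last in all 6. The classical fibroblast markers Pdgfra, Tcf21 and Thy1 stood in the lower part of this order, at 6.53, 4.95 and 3.68 CPM per kilobase. Srpx moved most along it: it ranked 29 of 34 in both RH/+ vehicle libraries, 21 in both RH/RQ vehicle libraries, and 28 and 29 in the treated libraries.

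**Figure D1:**
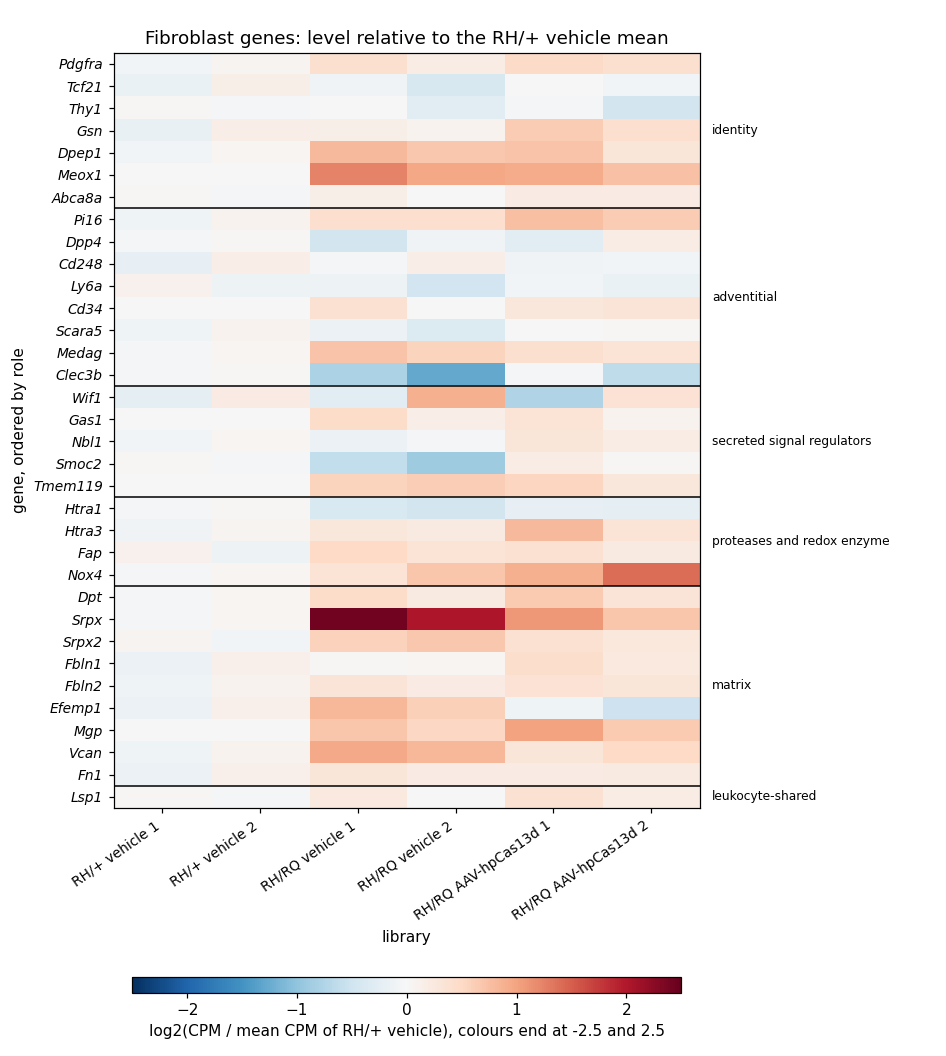
Level of each of the 34 fibroblast genes in each library as log2 of its CPM over the mean CPM of RH/+ vehicle, genes in rows by role and libraries in columns. Srpx in RH/RQ vehicle is the darkest row at 17.7 and 13.6 CPM against 3.23 and 3.46, while Clec3b and Smoc2 are blue in RH/RQ vehicle and the adventitial genes are mixed.

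The first comparison set RH/RQ vehicle against RH/+ vehicle, which differ in the second Myh6 allele and in the sex-linked pattern. Fibroblast genes did not move as a block. Of the 9 matrix genes 4 rose in RH/RQ vehicle, and of the 7 identity genes 2, with the largest difference for Srpx, while Clec3b, Smoc2 and Htra1 were lower and the classical markers Tcf21 and Thy1 did not pass the test. By limma on log2(CPM + 1), with Benjamini-Hochberg adjustment over 16804 genes and a call at an adjusted p under 0.05, 8 of the 34 genes were higher and 3 were lower, and 23 were not called. Of all genes tested, 4.99% were called, 3.48% higher and 1.51% lower. With TMM scaling the calls over all genes split into 527 higher and 404 lower, against 585 and 253 here. The median log2 difference was 0.26 over the 34 genes and 0.04 over all genes tested. Over 17 alternative settings the log2 differences went down to 0.53 for Efemp1, 0.45 for Medag and 0.32 for Pi16. Without a filter on low genes Srpx alone was called among the 34. Over all genes that setting called 52 higher and 5 lower. Fold changes on this scale understate the change of genes at a few CPM. In whole tissue, more fibroblasts, more RNA per fibroblast and RNA from other cells that express the same gene cannot be told apart.

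Among the 9 matrix genes, Srpx, Vcan, Efemp1 and Mgp rose, the other 5 were not called, and all 9 had a log2 difference above 0. Srpx, which encodes a secreted protein with sushi repeats, was at 3.23 and 3.46 CPM in RH/+ vehicle, 17.7 and 13.6 CPM in RH/RQ vehicle and 7.06 and 5.41 CPM in treated RH/RQ. The 3 groups did not overlap, and RH/RQ vehicle was highest. The ratio of the means of RH/RQ vehicle and RH/+ vehicle was 4.68, with a log2 difference of 1.93 (SE 0.17; limma adjusted p = 1.02e-07). Srpx lies on the X chromosome (chrX:10037977-10117709, minus strand, GRCm38), and 208 bases of its exons, 7.84% of their length, are shared with Rpgr on the same strand, a gene at up to 6.04 CPM. How reads in the shared bases were counted is not known, since the counting settings are not given.

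Vcan, the large chondroitin sulfate proteoglycan versican, was at 13.6 and 15.5 CPM in RH/+ vehicle and 28.0 and 25.8 CPM in RH/RQ vehicle. Both RH/RQ vehicle libraries were above both RH/+ vehicle libraries, and the log2 difference was 0.85 (SE 0.13; limma adjusted p = 0.00013). Efemp1, a fibulin of elastic and basement membrane matrix, was at 9.98 and 12.2 CPM in RH/+ vehicle and 19.7 and 16.8 CPM in RH/RQ vehicle, a log2 difference of 0.68 (SE 0.16; limma adjusted p = 0.01). Mgp, matrix Gla protein, an inhibitor of calcification, was at 167 and 166 CPM in RH/+ vehicle and 268 and 239 CPM in RH/RQ vehicle. Its groups were well apart next to the small gap between the RH/+ libraries, and the log2 difference was 0.60 (SE 0.11; limma adjusted p = 0.00092).

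Of the matrix genes that were not called, Srpx2, a secreted relative of Srpx that is also X-linked, came nearest. It was at 5.30 and 4.81 CPM in RH/+ vehicle and 7.57 and 8.07 CPM in RH/RQ vehicle, with a log2 difference of 0.54 (SE 0.16; limma adjusted p = 0.0536), and it was called under 8 of 17 alternative settings. Dpt, dermatopontin, a small matrix protein that binds decorin, had a log2 difference of 0.34 (SE 0.11; limma adjusted p = 0.0795). Fbln2 (0.26), Fn1 (0.26) and Fbln1 (0.04 on the log2 scale) completed the role; Fn1 is fibronectin and the other pair are fibulins. Fbln1 was at 77.2 and 93.9 CPM in RH/+ vehicle and 86.8 and 88.6 CPM in RH/RQ vehicle, so its groups overlapped, and the sign of its difference turned under TMM and RLE scaling.

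Of the called genes that rose and that have a window in the reference table, the 4 with the smallest p were taken. Their shared direction follows from this choice and is not a separate result. The promoter windows of these 4 genes were searched for motifs. They are RefSeq sequences of GRCm38.p6, 250 bases before to 50 bases after the start of the gene, written along the strand of the gene; capitals mark matches on either strand to the motifs searched, TGANTCA (AP-1), GGAATG (TEAD), CAGCTG (an E-box) and TATAAA, and no matches overlapped. The windows are Srpx at chrX:10117591-10117890 (minus strand), Vcan at chr13:89742463-89742762 (minus strand), Dpep1 at chr8:123185985-123186284 (plus strand) and Efemp1 at chr11:28852955-28853254 (plus strand).
Srpx: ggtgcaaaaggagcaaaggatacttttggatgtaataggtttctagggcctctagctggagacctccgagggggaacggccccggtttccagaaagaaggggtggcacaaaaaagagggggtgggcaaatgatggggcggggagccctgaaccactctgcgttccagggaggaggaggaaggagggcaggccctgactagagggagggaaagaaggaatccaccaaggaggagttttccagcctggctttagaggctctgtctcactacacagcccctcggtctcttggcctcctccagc
Vcan: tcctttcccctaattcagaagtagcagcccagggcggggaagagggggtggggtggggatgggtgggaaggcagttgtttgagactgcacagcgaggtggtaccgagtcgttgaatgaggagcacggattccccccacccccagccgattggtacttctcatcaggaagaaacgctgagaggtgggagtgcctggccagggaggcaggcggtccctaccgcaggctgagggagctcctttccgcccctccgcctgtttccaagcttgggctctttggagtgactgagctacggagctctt
Dpep1: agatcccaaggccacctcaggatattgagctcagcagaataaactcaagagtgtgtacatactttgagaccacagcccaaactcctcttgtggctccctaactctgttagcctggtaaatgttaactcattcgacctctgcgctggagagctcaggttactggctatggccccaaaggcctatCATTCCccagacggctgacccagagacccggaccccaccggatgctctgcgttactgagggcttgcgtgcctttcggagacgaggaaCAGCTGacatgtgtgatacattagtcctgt
Efemp1: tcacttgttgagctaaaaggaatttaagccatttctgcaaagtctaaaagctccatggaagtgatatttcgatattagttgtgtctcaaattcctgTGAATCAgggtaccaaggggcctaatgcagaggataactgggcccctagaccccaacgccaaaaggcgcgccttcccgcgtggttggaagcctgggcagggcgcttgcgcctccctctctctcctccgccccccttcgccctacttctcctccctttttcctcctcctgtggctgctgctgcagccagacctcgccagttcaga
The windows of Srpx and Vcan hold none of the 4 motifs. The window of Dpep1 holds a TEAD match on the opposite strand, at bases -67 to -62 from the start, and an E-box at bases 20 to 25. The window of Efemp1 holds an AP-1 match at bases -154 to -148. Over the 26 windows of the 22 listed genes that the table holds, AP-1 was in 7.69% against 7.81% of all 32851 windows, TEAD in 11.5% against 14.7%, TATAAA in 11.5% against 13.6% and CAGCTG in 34.6% against 16.3%. The 7 genes with CAGCTG were Dpep1, Dpt, Fbln1, Gsn, Htra3, Nox4 and Pi16. A match describes letters in a window and is not a bound site.

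Among the 7 identity genes, Meox1 and Dpep1 rose and 5 were not called. Meox1, a homeobox transcription factor that in mice has been tied to fibroblast activation in the failing heart, was at 11.9 and 12.1 CPM in RH/+ vehicle, 28.4 and 23.5 CPM in RH/RQ vehicle and 22.7 and 19.9 CPM in treated RH/RQ. Both RH/+ vehicle libraries were far below the other 4, and the log2 difference between the vehicle groups was 1.04 (SE 0.13; limma adjusted p = 1.17e-05). Dpep1, a membrane dipeptidase, was at 44.8 and 48.7 CPM in RH/+ vehicle and 82.1 and 74.3 CPM in RH/RQ vehicle, a log2 difference of 0.73 (SE 0.12; limma adjusted p = 0.000288).

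Pdgfra, the alpha receptor for platelet-derived growth factor and a standard surface marker of cardiac fibroblasts, was at 52.2 and 57.4 CPM in RH/+ vehicle and 72.2 and 62.2 CPM in RH/RQ vehicle. The libraries did not overlap, but the log2 difference of 0.29 (SE 0.10) was not called (limma adjusted p = 0.118). Tcf21, the transcription factor that specifies fibroblasts from the epicardium, was at 10.97 and 13.8 CPM in RH/+ vehicle and 11.6 and 9.41 CPM in RH/RQ vehicle, and its groups overlapped. Thy1, a surface glycoprotein of fibroblasts, was at 12.2 and 11.8 CPM in RH/+ vehicle and 12.0 and 9.85 CPM in RH/RQ vehicle, again overlapping. Gsn, the actin-severing protein gelsolin, and the ABC transporter gene Abca8a overlapped as well, with log2 differences of 0.13 and 0.08.

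The adventitial genes went both ways, with 2 of 8 higher and 1 lower. Pi16, a peptidase inhibitor that marks adventitial fibroblasts across mouse organs, was at 63.5 and 72.9 CPM in RH/+ vehicle and 91.2 and 91.6 CPM in RH/RQ vehicle, a log2 difference of 0.42 (SE 0.10; limma adjusted p = 0.0104). Medag, a gene linked to fat cell formation in mice, was at 8.85 and 9.52 CPM in RH/+ vehicle and 15.1 and 13.6 CPM in RH/RQ vehicle, a log2 difference of 0.59 (SE 0.14; limma adjusted p = 0.0131). Of its exons 1453 bases, 36.7%, are shared with the same-strand predicted gene Gm20488, for which no CPM was given. Clec3b, the secreted lectin tetranectin, went the other way, from 61.7 and 64.6 CPM in RH/+ vehicle to 36.7 and 25.9 CPM in RH/RQ vehicle. It fell by 1.01 on the log2 scale (SE 0.15; limma adjusted p = 0.00012).

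Pi16 was thus higher and Clec3b lower in the same RH/RQ vehicle libraries. The genes for surface proteins of this role were not called: Ly6a had a log2 difference of -0.29 (SE 0.11; limma adjusted p = 0.149), Cd34 of 0.18, Cd248, which encodes endosialin, of 0.07, and the surface peptidase gene Dpp4 of -0.21. Scara5, a scavenger receptor that takes up ferritin, had -0.24 (SE 0.11; limma adjusted p = 0.288), with 30.1 and 34.6 CPM in RH/+ vehicle and 29.1 and 25.4 CPM in RH/RQ vehicle.

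Among the regulators of signals, Smoc2, a secreted calcium-binding protein of the matrix, was the 1 of 5 that changed. It was at 126 and 121 CPM in RH/+ vehicle, 80.5 and 66.6 CPM in RH/RQ vehicle and 141 and 126 CPM in treated RH/RQ. RH/RQ vehicle was below all 4 other libraries, and Smoc2 fell by 0.75 on the log2 scale between the vehicle groups (SE 0.10; limma adjusted p = 3.95e-05). Tmem119, a membrane protein gene best known from osteoblasts and microglia, had a log2 difference of 0.51 (SE 0.16; limma adjusted p = 0.0757). Gas1, a co-receptor for hedgehog ligands, had 0.30; 589 bases of its exons lie opposite the antisense gene Gm48488, which was at most at 0.473 CPM. The Wnt-binding inhibitor gene Wif1 had 0.26, and the BMP antagonist gene Nbl1 had -0.08, none called. Wif1 was uneven within RH/RQ vehicle, at 1.86 in one library and 4.12 CPM in the other.

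Of the 3 protease genes and Nox4, only Htra1 was called. Htra1, a secreted serine protease, was at 82.7 and 86.2 CPM in RH/+ vehicle and 64.8 and 61.8 CPM in RH/RQ vehicle, and it fell by 0.41 on the log2 scale (SE 0.09; limma adjusted p = 0.00929). Its relative Htra3 had a log2 difference of the other sign, 0.25 (SE 0.11; limma adjusted p = 0.254), with 109 and 122 CPM in RH/+ vehicle and 140 and 135 CPM in RH/RQ vehicle. Fap, a surface protease of activated fibroblasts, had 0.36 (SE 0.17; limma adjusted p = 0.265), and Nox4, an oxidase that makes hydrogen peroxide, had 0.31 (SE 0.18; limma adjusted p = 0.412). Lsp1, an actin-binding protein gene shared with leukocytes, had 0.11 with overlapping groups.

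Some markers of other cell types also differed in the same comparison. The 10 macrophage markers summed to 396 to 400 CPM in RH/+ vehicle and 483 to 526 CPM in RH/RQ vehicle, with 4 of 10 called higher (Adgre1, Csf1r, Cx3cr1 and Mrc1). The 8 cardiomyocyte markers summed to 57491 to 61635 CPM against 51736 to 54297 CPM, with 0 of 8 called by limma, 2 under an unadjusted p of 0.05, 1 called lower by edgeR and 4 by DESeq2. The mural markers summed to 1420 to 1440 CPM against 1173 to 1215 CPM, with Abcc9 and Acta2 called lower. The list did not fall as a block: its median log2 difference was 0.04, as over all genes tested. Of its 10 genes 6 had a difference above 0, and 2 were higher at an unadjusted p under 0.05 by limma. The 6 adipocyte markers summed to 0.814 and 8.07 CPM in the RH/+ libraries and to 0.157 CPM and 0 in the RH/RQ vehicle libraries. The part of these markers in the fibroblast gene results was not tested. The 10 endothelial markers summed to 1155 to 1228 CPM against 1252 to 1335 CPM, with 0 called by limma, edgeR or DESeq2 and 3 under an unadjusted p of 0.05 by limma.

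**Figure D2:**
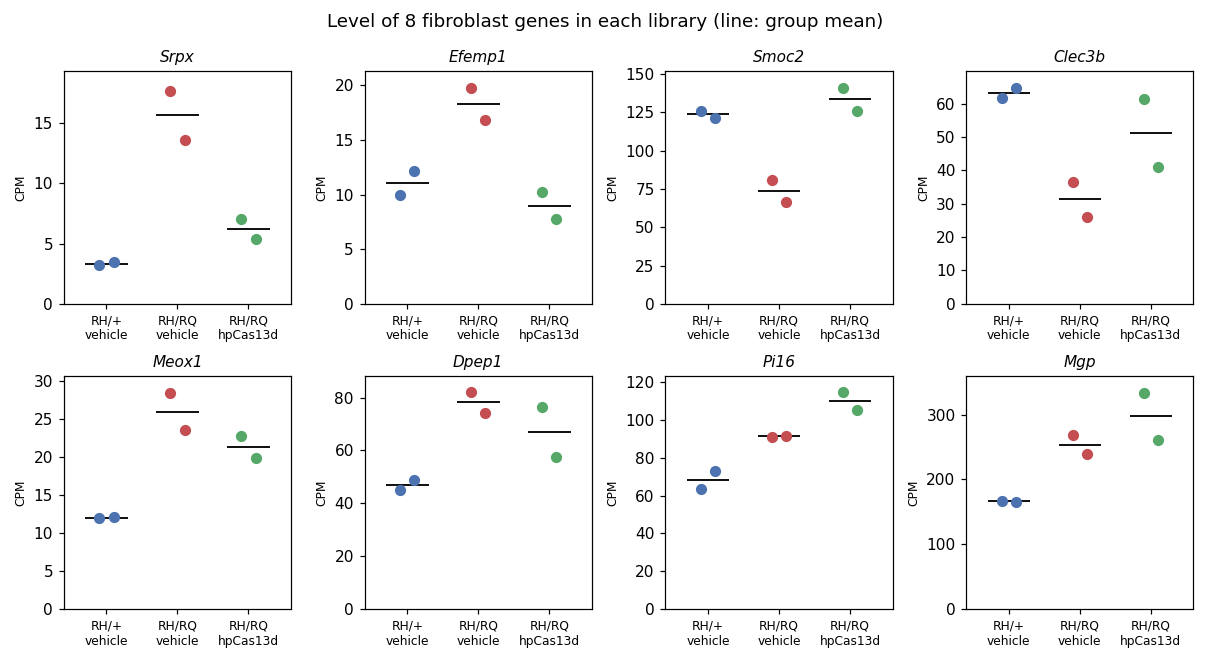
CPM of 8 of the fibroblast genes in each library, 1 panel per gene, with points for libraries and a line at the group mean. Srpx and Efemp1 peak in RH/RQ vehicle, Smoc2 and Clec3b are lowest there, and Meox1, Dpep1, Pi16 and Mgp are above RH/+ vehicle in both RH/RQ groups.

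The second comparison set treated RH/RQ against RH/RQ vehicle, which share the genotype and differ in the agent and in the sex-linked pattern. Few of the fibroblast genes were called. Smoc2 and Clec3b rose and Srpx and Efemp1 fell, so that 2 of 34 were higher, 2 were lower and 30 were not called by limma; of all genes tested, 2.05% were called, 1.22% higher and 0.827% lower. With TMM scaling the calls over all genes split into 172 higher and 196 lower, against 205 and 139 here. The median log2 difference was 0.13 over the 34 genes and 0.04 over all genes. At an unadjusted p under 0.05 limma put 11 of 34 higher and 4 lower, edgeR 6 and 7, and DESeq2 6 and 6. The share of all genes at that level was not counted, so these counts cannot be read as a result about the 34. Without a filter on low genes 0 of the 34 were called, and over all genes 5 were higher and 10 lower. This comparison shares the RH/RQ vehicle libraries with the first, so a gene that stood high or low in those libraries enters both with opposite signs.

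Smoc2, given per library above, rose by 0.86 on the log2 scale (SE 0.10; limma adjusted p = 1.4e-05), and both treated libraries were above both RH/RQ vehicle libraries. Clec3b was at 36.7 and 25.9 CPM in RH/RQ vehicle and 61.5 and 40.9 CPM in treated RH/RQ, a log2 difference of 0.68 (SE 0.15; limma adjusted p = 0.0126). The treated libraries were uneven for Clec3b, the first at the level of RH/+ vehicle and the second near RH/RQ vehicle. The call was lost under DESeq2, without a filter on low genes, without the second RH/RQ vehicle library and without the first treated library, with a highest adjusted p of 0.475 over all 17 alternatives.

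Srpx fell by 1.202 on the log2 scale between RH/RQ vehicle and treated RH/RQ (SE 0.17; limma adjusted p = 0.000167), a ratio of means of 0.398. Efemp1 was at 19.7 and 16.8 CPM in RH/RQ vehicle and 10.3 and 7.73 CPM in treated RH/RQ, and it fell by 0.95 on the log2 scale (SE 0.16; limma adjusted p = 0.000745). For both genes the treated libraries were below both RH/RQ vehicle libraries. Vcan was at 28.0 and 25.8 CPM in RH/RQ vehicle and 18.0 and 20.6 CPM in treated RH/RQ, with a log2 difference of -0.46 (SE 0.13; limma adjusted p = 0.0608). It missed the threshold here and passed it under 8 of 17 alternatives, among them edgeR, DESeq2, TMM and RLE scaling.

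The members that had been higher in RH/RQ vehicle than in RH/+ vehicle did not all stand lower in the treated hearts. Meox1 had a log2 difference of -0.27 (SE 0.13; limma adjusted p = 0.396), Dpep1 of -0.23 (SE 0.12; limma adjusted p = 0.422) and Medag of -0.25 (SE 0.14; limma adjusted p = 0.506). Pi16 had 0.26 (SE 0.10; limma adjusted p = 0.224) and Mgp 0.22 (SE 0.11; limma adjusted p = 0.391), both with the sign of a higher level in treated RH/RQ. Htra1, lower in RH/RQ vehicle, had 0.20 (SE 0.09; limma adjusted p = 0.370). None of these 6 differences was called.

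Gsn had the largest difference among the other identity genes, at 1603 and 1550 CPM in RH/RQ vehicle and 2267 and 1934 CPM in treated RH/RQ, a log2 difference of 0.41 (SE 0.13; limma adjusted p = 0.128). Htra3 was at 140 and 135 CPM in RH/RQ vehicle and 202 and 146 CPM in treated RH/RQ, with 0.32 (SE 0.11; limma adjusted p = 0.210), and the first treated library accounted for most of that gap. Nbl1 had 0.30 (SE 0.13; limma adjusted p = 0.316) and Fbln1 0.30 (SE 0.10; limma adjusted p = 0.190). Over 17 alternative settings the log2 differences spanned 0.20 to 0.39 for Fbln1, 0.29 to 0.52 for Gsn, 0.086 to 0.55 for Htra3 and 0.046 to 0.40 for Mgp. Nox4 was at 1.57 and 1.98 CPM in RH/RQ vehicle and 2.29 and 3.22 CPM in treated RH/RQ, with 0.43 (SE 0.18; limma adjusted p = 0.326).

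None of the other genes was called either. Wif1 had a log2 difference of -0.35 (SE 0.24; limma adjusted p = 0.606), with overlapping groups. Srpx2 had -0.26 (SE 0.16; limma adjusted p = 0.545) and Scara5 0.25 (SE 0.11; limma adjusted p = 0.358), each without overlap. Pdgfra had a log2 difference of 0.14 (SE 0.10; limma adjusted p = 0.607), Tcf21 of 0.19 and Thy1 of -0.10. Fn1, at 53.6 and 50.1 CPM against 49.7 and 50.7 CPM, had -0.04 (SE 0.11; limma adjusted p = 0.917), the smallest of the 34 in size. In this comparison 0 of 10 macrophage markers were called by limma, with 3 under an unadjusted p of 0.05 and 2 called lower by edgeR and by DESeq2, and their sum was 425 to 504 CPM in treated RH/RQ. Among the atrial genes, Nppa, the natriuretic peptide gene that stressed ventricle also expresses, was at 112 and 117 CPM in RH/RQ vehicle and 428 and 753 CPM in treated RH/RQ, and it was called higher. The rest of that list stayed at or below 2.47 CPM in every library. Its part in the fibroblast results was not tested.

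**Figure D3:**
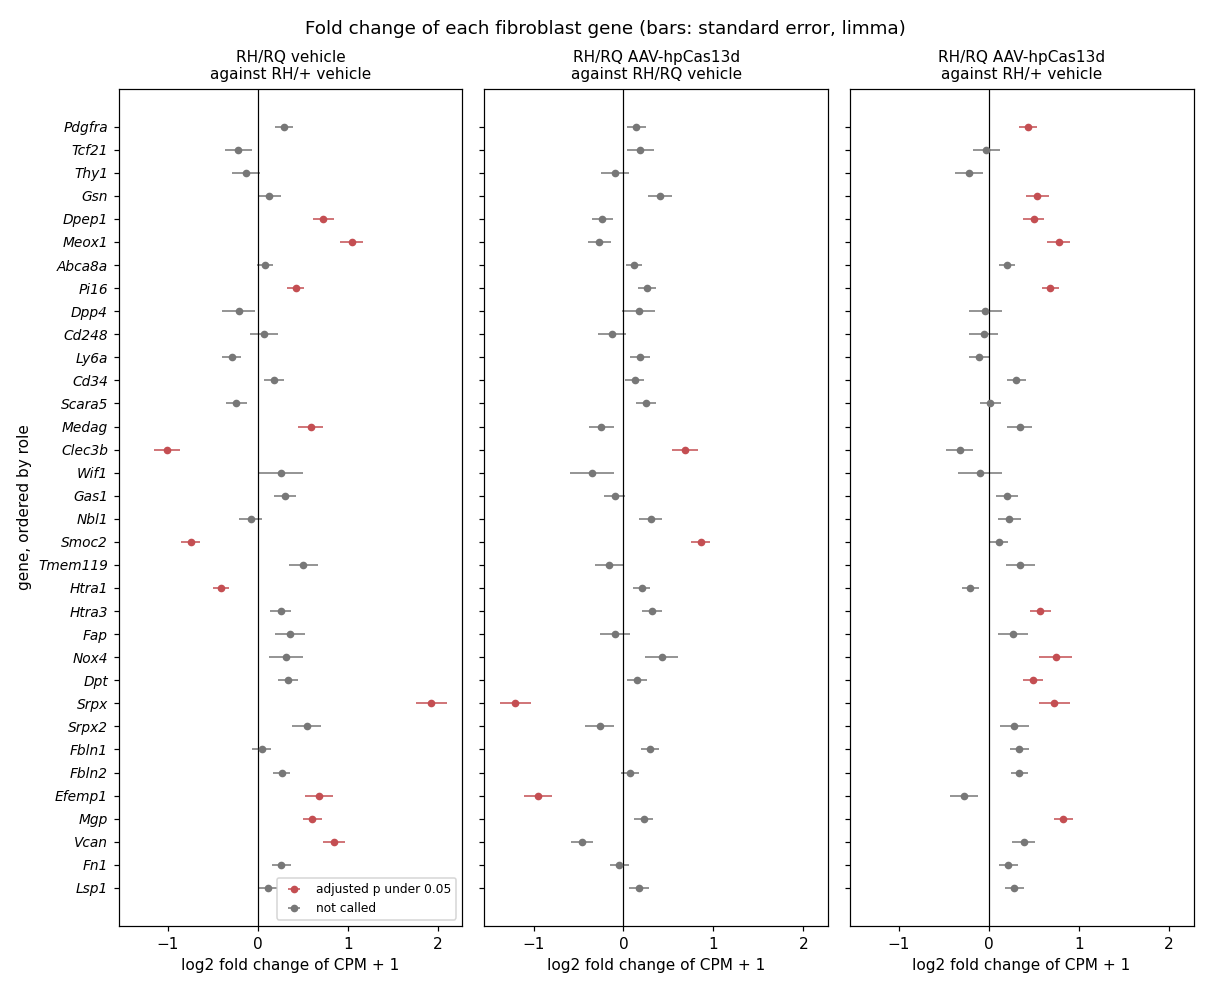
Log2 fold change of CPM + 1 with its limma standard error for each fibroblast gene in the 3 comparisons, red where the adjusted p was under 0.05. In the first panel 8 genes are called to the right of 0 and 3 to the left, in the second 2 and 2, and in the third 10 and 0.

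The third comparison set treated RH/RQ against RH/+ vehicle, the pair that does not differ in the sex-linked pattern. These groups differ both in the second Myh6 allele and in the agent, which cannot be told apart here. Fibroblast genes stood higher in the treated hearts where they were called at all: 10 of 34 were higher, 0 were lower and 24 were not called by limma. Of all genes tested, 2.86% were called, 2.33% higher and 0.53% lower. With TMM scaling the calls over all genes split into 237 higher and 164 lower, against 391 and 89 here. The median log2 difference was 0.28 over the 34 genes and 0.08 over all genes. At an unadjusted p under 0.05 limma put 18 of 34 higher and 2 lower, edgeR 13 and 4, and DESeq2 13 and 2. The share of all genes at that level was not counted, so these counts too cannot be read as a result about the 34. Against the 0 lower calls of limma, edgeR called 0 and DESeq2 called 1, Htra1. This comparison shares the RH/+ vehicle libraries with the first and the treated libraries with the second.

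On the log2(CPM + 1) scale Mgp had the largest difference, though the ratio of means was larger for Nox4 (2.24) and Srpx (1.86) than for Mgp (1.79). Mgp went from 167 and 166 CPM in RH/+ vehicle to 334 and 261 CPM in treated RH/RQ, a log2 difference of 0.83 (SE 0.11; limma adjusted p = 3.92e-05). Pi16 went from 63.5 and 72.9 CPM to 115 and 105 CPM, with 0.68 (SE 0.10; limma adjusted p = 0.000139). Meox1 had 0.77 (SE 0.13; limma adjusted p = 0.000863). For these 3 genes the treated libraries were above both RH/+ libraries and the calls were lost only when no filter on low genes was used.

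Dpep1 was at 76.5 and 57.4 CPM in treated RH/RQ, with 0.50 (SE 0.12; limma adjusted p = 0.0173), and Srpx had 0.73 (SE 0.17; limma adjusted p = 0.0194). Htra3 went from 109 and 122 CPM in RH/+ vehicle to 202 and 146 CPM, with 0.57 (SE 0.11; limma adjusted p = 0.00539). Dpt went from 108 and 116 CPM to 177 and 140 CPM, with 0.49 (SE 0.11; limma adjusted p = 0.0122). In Dpep1, Htra3 and Dpt the first treated library was well above the second.

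Gsn was at 1278 and 1628 CPM in RH/+ vehicle and 2267 and 1934 CPM in treated RH/RQ, with 0.54 (SE 0.13; limma adjusted p = 0.0225). Pdgfra was at 76.2 and 72.3 CPM in treated RH/RQ against 52.2 and 57.4 CPM, with 0.43 (SE 0.10; limma adjusted p = 0.0182). Nox4 was at 1.18 and 1.28 CPM in RH/+ vehicle and 2.29 and 3.22 CPM in treated RH/RQ, with 0.74 (SE 0.18; limma adjusted p = 0.0258) and a ratio of means of 2.24. In all 3 the groups did not overlap. Of the 10 calls, limma with TMM factors kept 7, with Dpep1, Gsn and Pdgfra lost, and edgeR, which changes the test as well as the scaling, kept 5 (Meox1, Pi16, Htra3, Srpx and Mgp). Over 17 alternative settings the log2 differences went down to 0.29 for Dpep1, 0.31 for Nox4 and 0.32 for Dpt and Pdgfra. Without a filter on low genes 0 of the 10 calls were left, and over all genes 5 were higher and 2 lower.

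The genes with the sign of a lower level in treated RH/RQ than in RH/+ vehicle were not called. Clec3b had -0.33 (SE 0.15; limma adjusted p = 0.301), Efemp1 -0.28 (SE 0.16; limma adjusted p = 0.413) and Htra1 -0.21 (SE 0.09; limma adjusted p = 0.289). Smoc2 had a difference of the other sign, 0.11 (SE 0.10; limma adjusted p = 0.666), and the second treated library lay between the RH/+ libraries. Vcan was between the vehicle groups in both treated libraries, with 0.39 against RH/+ vehicle (SE 0.13; limma adjusted p = 0.114). Fbln2 (0.34, limma adjusted p = 0.0594) and Fbln1 (0.34, limma adjusted p = 0.0872) came near the threshold. Beside these values, the macrophage markers had 0 of 10 called by limma, edgeR or DESeq2 and 5 under an unadjusted p of 0.05 by limma, Acta2 was called lower among the mural markers, and Nppa was called higher; their part in the results was not tested.

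Over the 3 comparisons 18 of the 34 genes were never called. In the order of the comparisons, limma called 4.99%, 2.05% and 2.86% of all 16804 genes tested. The share of all genes that were never called was not counted, so the 18 cannot be read as a result about these 34. Meox1, Dpep1, Pi16 and Mgp were higher in both RH/RQ groups than in RH/+ vehicle. Pdgfra, Gsn, Htra3, Nox4 and Dpt were called in the third comparison alone. Smoc2 and Clec3b were lower in RH/RQ vehicle than in RH/+ vehicle and higher in treated RH/RQ than in RH/RQ vehicle. Efemp1 and Srpx had the opposite pair of signs, and Srpx was also called in the third comparison. Htra1, Vcan and Medag were called in the first comparison alone. In the authors' deposited table, at an adjusted p under 0.05, 9 of the 34 genes were higher and 4 lower in the first comparison, 3 and 3 in the second and 6 and 0 in the third; the genes there that were not called here were Ly6a and Dpt in the first and Gsn and Vcan in the second. In the third, Pdgfra, Dpep1, Srpx and Nox4 were called here and not in the authors' deposited table, where their adjusted p was 0.108, 0.0985, 0.127 and 0.24.

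The level of each gene was also divided by that of Pdgfra in the same library, which describes how the other 33 stood next to a common fibroblast marker. Between the vehicle groups, 10 of these 33 ratios were higher in both RH/RQ vehicle libraries than in both RH/+ libraries and 12 were lower in both. The same counts were not made over all genes, so they cannot be read as a result about these 33. Srpx went from 0.0618 and 0.0603 of the Pdgfra level to 0.246 and 0.218, and stood at 0.0927 and 0.0748 in treated RH/RQ. Smoc2 went from 2.42 and 2.11 to 1.12 and 1.07, and stood at 1.85 and 1.75. Next to Pdgfra, Tcf21 was at 0.21 and 0.24 in RH/+ vehicle, 0.161 and 0.151 in RH/RQ vehicle and 0.161 and 0.163 in treated RH/RQ, so that this ratio was lower in both RH/RQ groups than in RH/+ vehicle. Thy1 had ratios of 0.233 and 0.205, then 0.166 and 0.158, then 0.153 and 0.12, in the same order of groups and likewise lower in both RH/RQ groups. Scara5, Ly6a, Abca8a, Dpp4, Clec3b, Nbl1, Smoc2 and Htra1 were also below in both, while Meox1, Srpx and Mgp were above in both. Pdgfra itself, the denominator, had log2 differences of 0.29 and 0.43 from RH/+ vehicle in RH/RQ vehicle and treated RH/RQ, the second of them called, while the CPM of Tcf21 and Scara5 in treated RH/RQ had differences of -0.03 and 0.01 from RH/+ vehicle. These ratios carry the error of Pdgfra, share it between genes and were not tested.

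**Figure D4:**
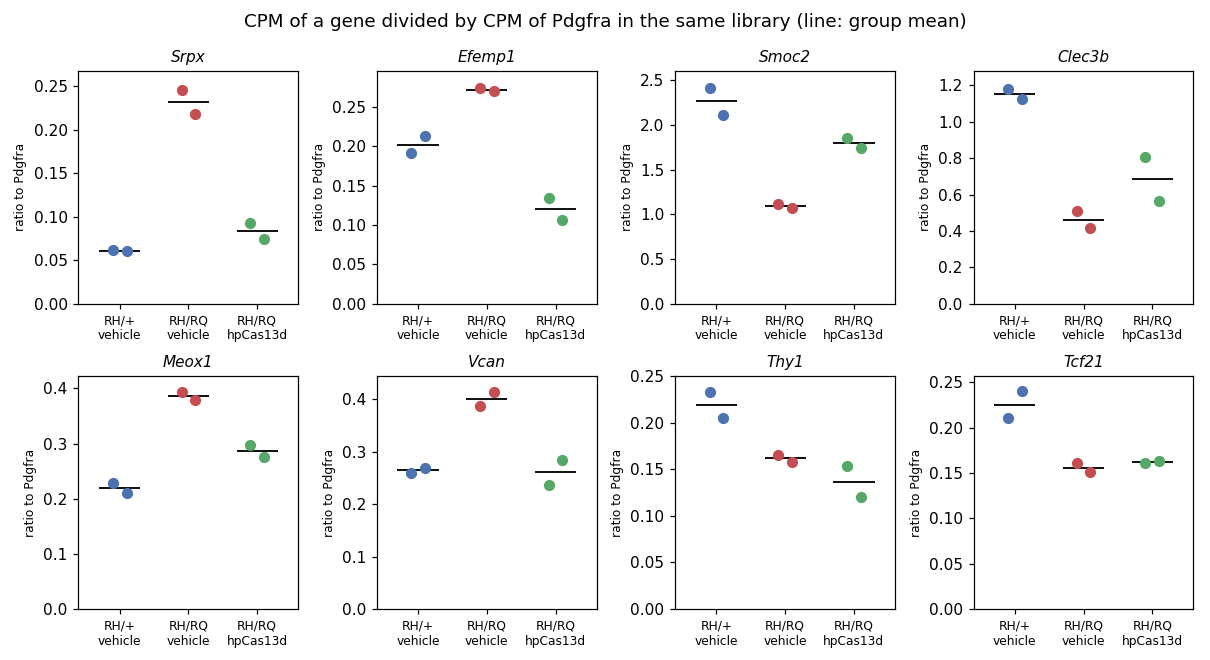
Ratio of the CPM of 8 fibroblast genes to the CPM of Pdgfra in the same library, with points for libraries and a line at the group mean. Efemp1, Srpx, Meox1 and Vcan are highest in RH/RQ vehicle, Smoc2 and Clec3b are lowest there, and Thy1 and Tcf21 are lower in both RH/RQ groups than in RH/+ vehicle.

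Other genes of the same biology were taken from 3 lists that do not hold any of the 34: 36 regulators of fibroblasts (growth factors, receptors and transcription factors), 32 further genes of resident fibroblasts and 22 genes of activated fibroblasts. The lists were chosen with earlier results of these data known, so their counts and their order are descriptive. Of all genes tested, limma called 3.48% higher and 1.51% lower in the first comparison. These shares were 1.22% and 0.827% in the second and 2.33% and 0.53% in the third. The share of all genes at an unadjusted p under 0.05 was not counted, so such counts of the lists have no background beside them. Activated genes had the largest median difference of the 3 lists in the first comparison. Of the 19 that passed the low count filter, 14 were higher and 0 lower in RH/RQ vehicle than in RH/+ vehicle, with a median log2 difference of 1.28 (16 higher and 0 lower at an unadjusted p under 0.05; edgeR and DESeq2 called 14 and 0). Against RH/RQ vehicle, 8 of 19 were lower and 1 was higher in treated RH/RQ, with a median of -0.45. Against RH/+ vehicle, 9 were higher and 0 lower in treated RH/RQ, with a median of 0.51 (11 and 0 at an unadjusted p under 0.05; 8 and 0 by edgeR, 6 and 0 by DESeq2).

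Cilp, a matrix protein of cartilage and of activated cardiac fibroblasts, was at 10.6 and 12.2 CPM in RH/+ vehicle, 69.5 and 76.1 CPM in RH/RQ vehicle and 39.3 and 37.1 CPM in treated RH/RQ. Its treated libraries lay between the vehicle groups, and all 3 differences were called (limma adjusted p = 1.18e-13, 2.23e-05 and 2.36e-09). Thbs4, a thrombospondin that heart muscle cells also make, was at 6.80 and 7.04, 36.9 and 42.0, and 9.10 and 9.44 CPM in the same order of groups. Ltbp2, which binds matrix microfibrils, was at 2.26 and 2.71, 12.4 and 18.9, and 6.23 and 7.09 CPM. Ccn2, a matricellular growth factor, took another course: it was at 39.0 and 39.5 CPM in RH/+ vehicle, 44.0 and 42.0 CPM in RH/RQ vehicle and 67.3 and 86.0 CPM in treated RH/RQ, called higher against both vehicle groups.

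Of the 32 resident genes, 12 were higher and 0 lower in RH/RQ vehicle than in RH/+ vehicle by limma (15 and 3 at an unadjusted p under 0.05), where edgeR and DESeq2 called 11 and 2. In treated RH/RQ against RH/RQ vehicle 2 were higher and 1 lower. In treated RH/RQ against RH/+ vehicle 7 were higher and 0 lower (17 and 0 at an unadjusted p under 0.05; 6 and 0 by edgeR and DESeq2). Their median log2 differences were 0.24, 0.02 and 0.23. Mmp2, a secreted gelatinase, was at 62.4 and 71.9 CPM in RH/+ vehicle, 131 and 141 CPM in RH/RQ vehicle and 130 and 109 CPM in treated RH/RQ. Ccdc80, a secreted matrix-binding protein gene, was at 59.9 and 68.2, 140 and 145, and 107 and 102 CPM, and it was called lower in treated RH/RQ than in RH/RQ vehicle (limma adjusted p = 0.0112). Gfpt2, an enzyme of hexosamine synthesis, and Pcolce2, an enhancer of procollagen processing, were the 2 that were higher in that comparison.

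Of the 36 regulators, 7 were higher and 0 lower in RH/RQ vehicle than in RH/+ vehicle by limma (14 and 2 at an unadjusted p under 0.05; 6 and 0 by edgeR, 5 and 0 by DESeq2). Fosl2, a subunit of the AP-1 transcription factor, was at 25.8 and 28.6 CPM in RH/+ vehicle, 43.9 and 43.6 CPM in RH/RQ vehicle and 27.2 and 28.9 CPM in treated RH/RQ. RH/RQ vehicle stood above all 4 other libraries, and Fosl2 was called higher in the first comparison (limma adjusted p = 0.000362) and lower in the second (limma adjusted p = 0.00162). Gli1, a target and effector of hedgehog signalling, was the 1 regulator higher in treated RH/RQ than in RH/RQ vehicle, at 4.25 and 2.93 CPM against 1.57 and 0.825 CPM (limma adjusted p = 0.00362). Scx, a transcription factor of tendon and matrix-making cells, was at 3.05 and 2.88, 5.82 and 6.21, and 6.18 and 5.85 CPM, higher in both RH/RQ groups than in RH/+ vehicle. Osr1, a transcription factor of connective tissue, was the other regulator called by limma in the third comparison, at 1.52 and 1.63 CPM in RH/+ vehicle and 3.28 and 3.03 CPM in treated RH/RQ.

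**Figure D5:**
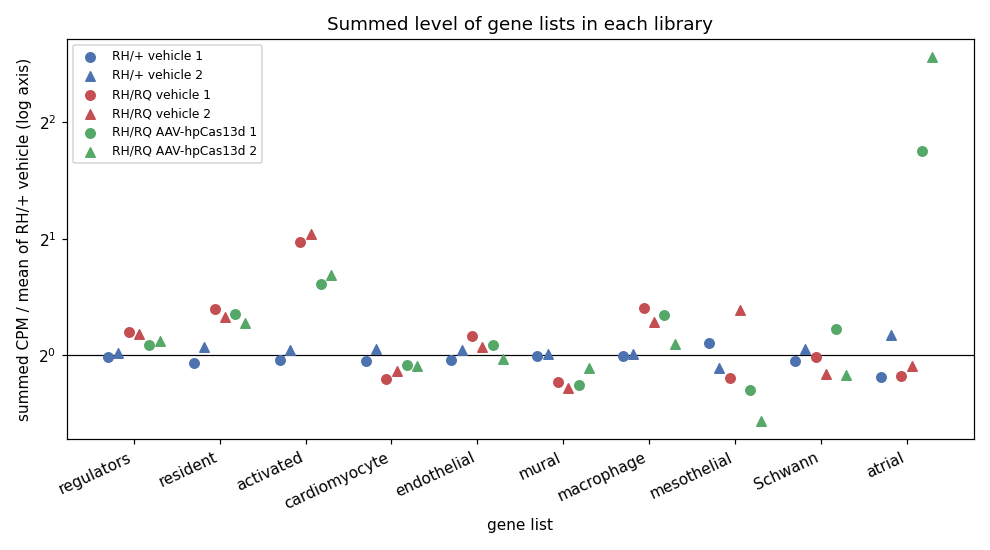
Summed CPM of 10 gene lists over the mean of RH/+ vehicle, on a log axis, 1 point per library. The activated fibroblast list is at 437 to 458 CPM in RH/RQ vehicle and 339 to 359 CPM in treated RH/RQ against 215 to 229 CPM in RH/+ vehicle, and the atrial list stands out in the treated libraries through Nppa.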

How the data were processed

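Poly(A) libraries from 1 µg of total RNA were made, per the labels' protocols. HISAT2, HTSeq, DESeq2 and mm10 are named, per the submitters' processing notes; versions, strand setting and annotation are not given in the sources used here. The authors deposited CPM in 3 tables of 4 libraries, beside, per the file headers, log2 fold changes and p-values. Their shorter lists were not used here. CPM gave whole reads for 100% of values (tolerance 0.001).

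The test was limma 3.58.1 with a trend (R 4.3.3) on log2(CPM + 1), all 6 libraries in 1 fit of 3 group means. Genes were kept by filterByExpr at a minimum count of 10, and adjustment was over 16804 genes. Alternatives were edgeR 4.0.16 and DESeq2 1.42.0 on the recovered reads, other scalings, filters and pseudocounts, a replicate block and leaving out libraries. Scripts were tested on simulated data.

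The members and gene lists were chosen with earlier results of these data known. All 34 members were described, and of each companion list the 3 genes with the smallest p in a comparison; a few genes were also named because they make up small counts. Libraries of a group differed beyond sampling noise (mean chi-square per gene 13.4, 18.0 and 25.9), so none was counted as a library deposited again; separate preparations of 1 heart would also differ. Floors cover counting error only. Gene coordinates are GENCODE M21 on GRCm38, where each member had 1 match; promoter windows are from RefSeq.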

Additional observations from a re-analysis of the deposited data

How the results depend on the processing

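The comparisons are numbered as in the text above. Without a filter on low genes the called members were 1 higher and 0 lower in the first comparison. They were 0 and 0 in the second and in the third. Over all genes that setting called 52 and 5, 5 and 10, and 5 and 2, so the loss was not particular to the members. The cause was not tested. DESeq2 gave 1 higher in the second and 1 lower in the third, where edgeR gave 5 higher and RLE factors 6. Leaving out each library gave 5 to 11 higher and 2 to 4 lower in the first comparison, 1 to 6 higher and 2 to 3 lower in the second, and 3 to 11 higher and 0 to 1 lower in the third. The 5 of the first came without the first RH/+ or the first RH/RQ vehicle library and the 1 lower of the third, Clec3b, without the first treated library. A fit that leaves a group with 1 library assumes that it varies like the others. The calls over all genes also moved with the library left out, so these ranges cannot be read as a result about the members.

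Replicate numbers were given in accession order. They match the leading digit of the sample titles, which is shared across groups. The labels do not say what that digit marks, and pairing was not assumed. The correlations of deviations of same-numbered libraries were 0.13, -0.02 and 0.07. Whether same-numbered libraries share an effect was not tested. With a replicate block the counts of members were 10 and 4, 3 and 3, and 12 and 0. Over all genes they were 781 and 392, 362 and 205, and 577 and 138. Without the block they were 585 and 253, 205 and 139, and 391 and 89.

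Of the fold changes of members recomputed under alternatives other than leaving out a library, 1051 kept their sign and side of the threshold, 40 lost a call, 22 gained one and 9 turned sign; with a library left out these numbers were 541, 29, 17 and 25. In the main fit 23, 30 and 24 of the 34 genes were not called in the 3 comparisons. Most of the differences that kept their side were therefore ones that stayed uncalled. Signs turned only for differences that were not called. Fbln1 in the first comparison had -0.011 by edgeR, -0.014 by DESeq2, -0.0054 with TMM and -0.0085 with RLE factors. Scara5 in the third had -0.094, -0.096, -0.088 and -0.091 in that order, and -0.015 with CPM over nuclear genes. Leaving out a library spanned, in the first comparison, -0.26 to 0.00066 for Thy1, -0.046 to 0.30 for Gsn, -0.096 to 0.24 for Cd248, -0.015 to 0.37 for Cd34, -0.16 to 0.68 for Wif1, -0.098 to 0.18 for Fbln1 and -0.018 to 0.23 for Lsp1. In the second it spanned -0.29 to 0.095 for Thy1, -0.011 to 0.36 for Dpp4, -0.069 to 0.32 for Cd34, -0.77 to 0.068 for Wif1, -0.24 to 0.042 for Gas1, -0.021 to 0.32 for Dpt and -0.093 to 0.0037 for Fn1. In the third it spanned -0.18 to 0.12 for Tcf21, -0.22 to 0.14 for Dpp4, -0.23 to 0.11 for Cd248, -0.23 to 0.012 for Ly6a, -0.081 to 0.11 for Scara5 and -0.46 to 0.27 for Wif1. The lowest member, Nox4, was at 1.18 to 3.22 CPM, above the floor of 3 reads in every library; with 2 libraries in a group the spread between samples is known only roughly.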

Other observations

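The mesothelial markers summed to 22.5 to 26.1 CPM in RH/+ vehicle, 21.2 to 31.8 CPM in RH/RQ vehicle and 16.4 to 19.8 CPM in treated RH/RQ, where Msln was called lower than in RH/+ vehicle. Among the mural markers Acta2, smooth muscle actin, was at 242 and 191 CPM in RH/+ vehicle, 71.3 and 98.0 CPM in RH/RQ vehicle and 73.5 and 76.2 CPM in treated RH/RQ, and it was called lower in both RH/RQ groups than in RH/+ vehicle. The Schwann cell markers summed to 20.1 to 26.5 CPM over all 6 libraries with 0 of 5 genes called by limma, edgeR or DESeq2, and 1 under an unadjusted p of 0.05 in limma, for RH/RQ vehicle against RH/+ vehicle. The lymphocyte markers summed to 3.84 to 7.14 CPM over the 6 libraries, with 0 of 6 called by any of these tools in any comparison and, by limma, 1 lower in the first and 2 higher in the second comparison at an unadjusted p under 0.05.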
